A study of Homo sapiens with 6 samples.

Results

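The genes of the axon guidance system, that is the Eph receptors, ephrins, semaphorins, plexins, neuropilins, SLIT ligands, ROBO receptors, netrins, UNC5 receptors and DCC, were followed in human osteosarcoma cells with and without ARID1A. These families were chosen with earlier results of these data known, and their rows were then found by gene name alone. This gave 70 of the 57820 rows of the gene tables and 69 gene names, because EFNA3 is listed in a pair of rows. The cells were AID-DivA, a line made from U2OS osteosarcoma cells that carries the restriction enzyme AsiSI under an inducible system, so that DNA breaks can be set at known sites. The enzyme was not induced here, and all cells were untreated. RNA was sequenced from 3 WT samples and 3 ARID1A-KO samples, numbered 3, 4 and 5 in each genotype. The knockout cells were established as clones after Cas9 editing with crRNAs against ARID1A, which encodes a subunit of the BAF (SWI/SNF) chromatin remodelling complex. The methods do not name the clone that was sequenced, so the loss of ARID1A and a difference between clones cannot be told apart. The labels do not say whether the samples of a genotype came from separate cultures, whereas a figure legend of the study describes its replicates as independent experiments, and the p-values below measure only the spread between these samples.

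Axon guidance ligands are secreted or membrane-bound cues that steer the growth cones of neurons by attraction or repulsion. Ephrins act on Eph receptor tyrosine kinases, semaphorins on plexins (the secreted class 3 semaphorins mostly through neuropilin co-receptors), SLITs on ROBOs, and netrins on DCC and the UNC5 receptors. Outside the nervous system the same families act in cell adhesion, migration, the growth of blood vessels and bone, where semaphorins, ephrins and Eph receptors pass signals between bone-forming and bone-resorbing cells.

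Between 54512105 and 84088708 counts per sample fell on genes in the strand direction of the library, and the guidance genes took between 0.165% and 0.195% of them. ARID1A itself had 166, 178 and 177 CPM (counts scaled to the size of the library) in WT replicates 3, 4 and 5 and 25.1, 27.5 and 25.2 CPM in ARID1A-KO replicates 3, 4 and 5, with a log2 fold change of -2.74 (SE 0.07). Of the osteoblast markers, COL1A1, SPARC, SPP1, RUNX2 and ALPL reached a mean of 1 RPKM (CPM divided by the exonic length in kilobases) in WT. All of these but ALPL did so in ARID1A-KO cells. SP7, IBSP, BGLAP, COL1A2 and PHEX were below 1 RPKM in both genotypes. Among the ARID1A-KO samples, replicate 5 stood apart from the other two. The chi-square per gene between samples was 7.40 for replicates 3 and 4, 33.6 for 3 and 5 and 23.6 for 4 and 5, while the WT pairs gave 18.0 to 30.6.

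Of the 70 rows, 62 had enough counts to be tested. With edgeR's quasi-likelihood test and Benjamini-Hochberg adjustment over all 19599 genes tested, 34 of the 62 (54.8%) were called at an adjusted p under 0.05, against 36.2% of all genes tested. In ARID1A-KO cells 11 genes were higher (17.7%, against 17.8% of all genes) and 23 were lower (37.1%, against 18.4% of all genes). The share of higher genes was thus that of all genes, and the share of lower genes was above it. A rise of at least 2-fold was called for 2 of them, SLIT1 and NRP1, where all genes gave 4.86%. A fall of at least 2-fold was called for 9 of them, where all genes gave 5.92%. The CPM of all 3 ARID1A-KO samples lay above all 3 WT samples for 12 of the 62 genes and below for 23 of the 62. Of all genes tested, 24.8% lay above and another 24.8% lay below. The median log2 fold change was -0.17, and that of all genes tested was 0.0066. Of 42 genes with a mean of at least 1 RPKM in either genotype, 10 were higher and 15 were lower (35.7%). Their median log2 fold change was 0.0031. Of the 20 tested genes below that level, 1 was higher and 8 were lower (40.0%), with a median of -0.40. Among receptors 4 of 32 were higher and 14 were lower, and among ligands 7 of 30 were higher and 9 were lower. In these bulk samples, fewer cells that use a gene and less RNA per cell cannot be told apart.

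**Figure D1:**
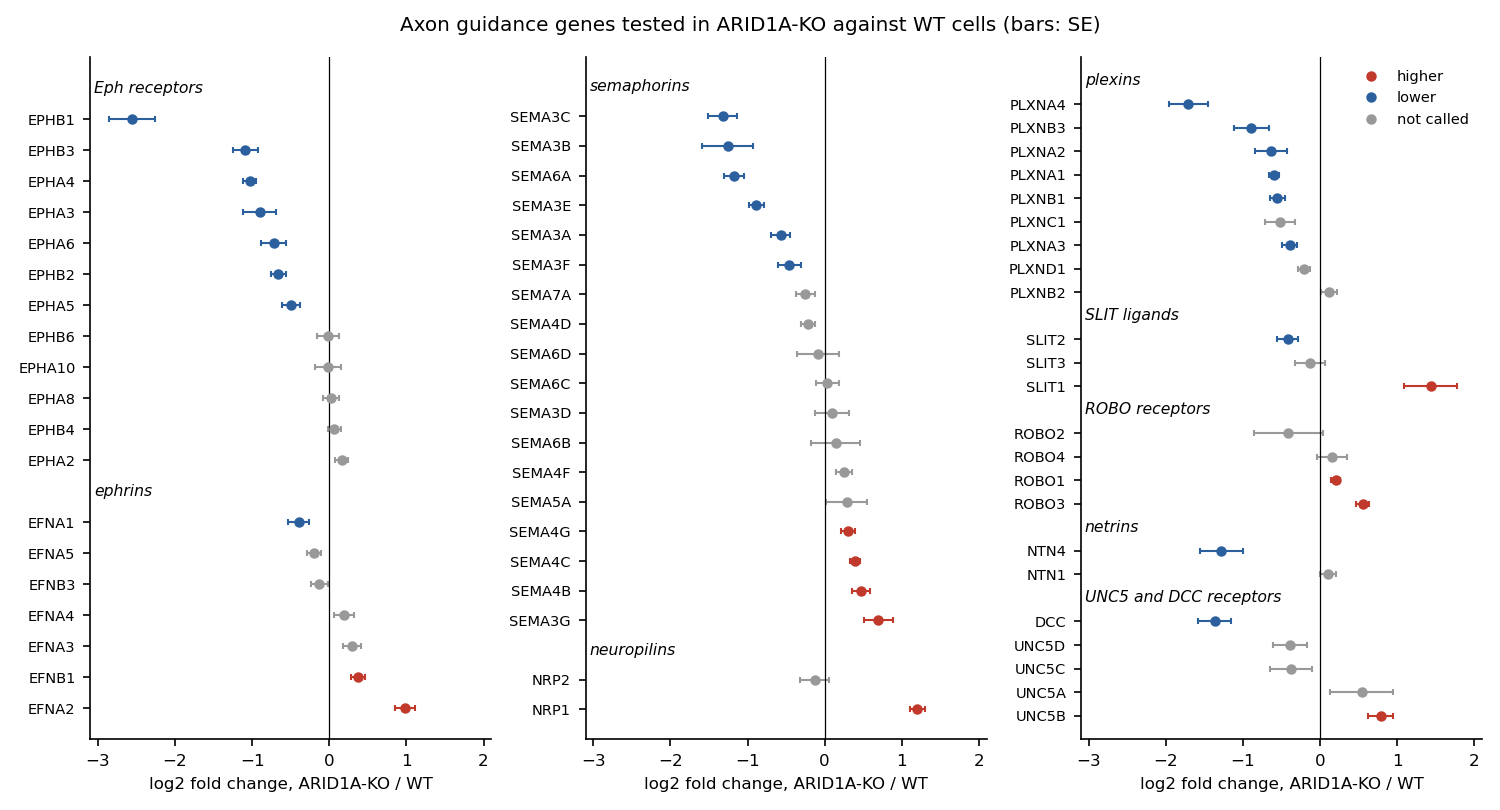
Log2 fold change (ARID1A-KO over WT) of the 62 guidance genes tested, by family, with bars of 1 SE; red marks the 11 genes called higher, blue the 23 called lower and grey the others. The Eph receptors and plexins hold 7 and 6 lower genes and no higher one, NRP1 stands at 1.20 and EPHB1 at -2.55.

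The rows that could not be tested had few or no counts in the strand direction of the gene. EPHA1, EPHA7, EFNB2, NTN3, NTN5 and SEMA4A stayed below 0.3 CPM in every sample. SEMA5B had 8 counts over the 3 WT samples and none over the 3 ARID1A-KO samples, where 3 counts per library correspond to between 0.0341 and 0.0546 CPM. The second EFNA3 row (ENSG00000251246.1) had no count in any sample. It lies within the span of the other EFNA3 row on the same strand, so its lack of counts need not mean a lack of RNA. A mean of at least 1 RPKM was reached by 41 rows in WT and 39 in ARID1A-KO cells, and by 42 in either. Per length, the highest levels belonged to PLXNB2 and EPHA2. PLXNB2, a receptor for class 4 semaphorins, had 40.4, 38.6 and 44.6 RPKM in WT and 38.7, 44.3 and 50.9 RPKM in ARID1A-KO cells. EPHA2, a receptor of ephrin-A ligands that many tumour lines express, had 35.4, 33.5 and 38.7 RPKM in WT and 36.4, 40.3 and 43.4 RPKM in ARID1A-KO cells. The samples of the genotypes overlapped for both genes, and neither was called (adjusted p of 0.402 and 0.161). SEMA7A, a lipid-anchored semaphorin, followed with 18.1, 21.5 and 20.0 RPKM in WT and 17.9, 19.1 and 13.3 RPKM in ARID1A-KO cells. EPHB4, the receptor that pairs with ephrin-B2, had 11.2, 10.1 and 12.4 against 11.2, 12.8 and 11.4 RPKM. SEMA6B, a transmembrane ligand of plexin-A4, varied most among these, with 13.5, 6.63 and 12.2 against 7.66, 10.1 and 17.9 RPKM. These overlapped between genotypes as well and were not called. The other genes among the 8 highest, PLXNA1, NRP1 and SEMA4C, differed between genotypes and are described with their families.

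Of 12 Eph receptors tested, 7 were lower in ARID1A-KO cells (58.3%, against 18.4% of all genes) and none was higher. Of the lower receptors, EPHA3, EPHA6, EPHB1 and EPHB3 lie on chromosome 3, where 34.7% of all genes tested were lower. The largest change among all guidance genes was that of EPHB1 (ENSG00000154928.12, chromosome 3 from 134316643 to 134979309 in GRCh37), a receptor tyrosine kinase for ephrin-B ligands. It had 5.74, 13.8 and 12 CPM in the WT samples and 1.94, 1.89 and 1.57 CPM in the ARID1A-KO samples. The WT samples thus varied more than 2-fold among themselves, and all 3 lay above the ARID1A-KO samples. The log2 fold change was -2.55 (SE 0.30, adjusted p = 0.000199), and without WT replicate 3, the lowest WT sample, it was -2.86. EPHB3 (ENSG00000182580.2) is another ephrin-B receptor and overlaps EIF2B5 on the same strand. It fell from 3.63, 2.92 and 3.95 CPM to 1.60, 1.56 and 1.75 CPM, and the log2 fold change came to -1.09 (SE 0.16, adjusted p = 0.000733). EPHB2, known for sorting cells along the gut crypt and for synapse formation, fell from 40.9, 53.3 and 52.8 CPM to 30.6, 31.2 and 31.1 CPM (log2 fold change -0.66, SE 0.10, adjusted p = 0.000881). The 3 ARID1A-KO samples lay close together for each of these genes and below every WT sample. EPHB4 and EPHB6, a family member without kinase activity, were not called (log2 fold changes of 0.07 and -0.02).

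On the EphA side, EPHA4 fell by about as much as EPHB3. EPHA4, which binds ephrins of both classes, had 25.9, 25.1 and 28.5 CPM in WT and 13.5, 13.2 and 12.2 CPM in ARID1A-KO cells (log2 fold change -1.03, SE 0.08, adjusted p = 2.69e-05). No other lower gene had a smaller adjusted p. EPHA6 fell from 4.08, 3.41 and 4.85 CPM to 2.44, 2.31 and 2.72 CPM (log2 fold change -0.72, SE 0.16, adjusted p = 0.00721). EPHA5 was lower by a log2 fold change of -0.50 (adjusted p = 0.00973). EPHA3 had at most 1.02 CPM and was lower by -0.90 on the log2 scale (adjusted p = 0.00981). EPHA2, EPHA8 and EPHA10 were not called, with log2 fold changes of 0.16, 0.02 and -0.01. The most abundant receptors, EPHA2 and EPHB4, were thus among those not called, and the summed level of the family was 66.8 ± 4.72 RPKM in WT and 64.5 ± 4.05 RPKM in ARID1A-KO cells (SD, n = 3 each). EPHA2 made up 53.7% ± 1.40 of that sum in WT and 62.1% ± 1.87 in ARID1A-KO cells, and EPHB2 went from 11.6% ± 1.55 to 7.60% ± 0.42.

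Ephrins changed in both directions. EFNA2 (ENSG00000099617.2, chromosome 19 from 1286153 to 1301430), a lipid-anchored ephrin-A ligand, rose from 4.00, 4.34 and 3.78 CPM to 6.82, 8.28 and 8.82 CPM. The groups did not overlap, and the log2 fold change was 0.98 (SE 0.13, adjusted p = 0.000442). Its locus overlaps MUM1 on the same strand, so reads in the overlap cannot be assigned to one of them by strand. How such reads were counted was not tested. EFNB1, a transmembrane ephrin-B ligand, rose from 15.6, 16 and 19 CPM to 20.8, 22.3 and 22.2 CPM (log2 fold change 0.37, SE 0.09, adjusted p = 0.0129). The call of EFNB1 was lost without WT replicate 3 (adjusted p = 0.0589) or without ARID1A-KO replicate 4 (adjusted p = 0.0523). EFNA1, the ligand first found for EPHA2, was lower by -0.40 on the log2 scale (10.4, 8.19 and 9.02 against 6.71, 6.13 and 8.09 CPM, adjusted p = 0.0473). That call was lost without any of 4 samples, with an adjusted p of up to 0.172 without ARID1A-KO replicate 4 and of 0.151, 0.0895 and 0.133 without WT replicates 3 and 5 and ARID1A-KO replicate 3. It was also lost with at least 10 counts required in every sample (adjusted p = 0.0506). EFNA3, EFNA4, EFNA5 and EFNB3 were not called, with log2 fold changes between -0.20 and 0.30, and EFNA3 and EFNA4 overlap on the same strand. The summed level of the ephrins was 25.1 ± 1.18 RPKM in WT and 28.2 ± 2.08 RPKM in ARID1A-KO cells.

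The genes with the largest change on either side of the Eph system, EPHB1 and EFNA2, are shown by the 150 bases upstream of their RefSeq start, read in the direction of the gene. These are EPHB1 at chr3:134795110-134795259 and EFNA2 at chr19:1285723-1285872, both on the plus strand of GRCh38.p14. Capitals mark CCAAT boxes (CCAAT, here on the opposite strand) in EPHB1 and GC boxes (GGGCGG, on either strand) in EFNA2. Within 250 bases upstream, GC made up 60.8% of EPHB1 and 84.0% of EFNA2.
EPHB1: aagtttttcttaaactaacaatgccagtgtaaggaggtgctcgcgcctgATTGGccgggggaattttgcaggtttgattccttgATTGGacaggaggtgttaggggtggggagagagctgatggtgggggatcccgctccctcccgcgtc
EFNA2: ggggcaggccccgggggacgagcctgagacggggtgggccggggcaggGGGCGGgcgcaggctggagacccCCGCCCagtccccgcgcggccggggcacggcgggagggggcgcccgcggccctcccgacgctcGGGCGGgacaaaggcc

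**Figure D2:**
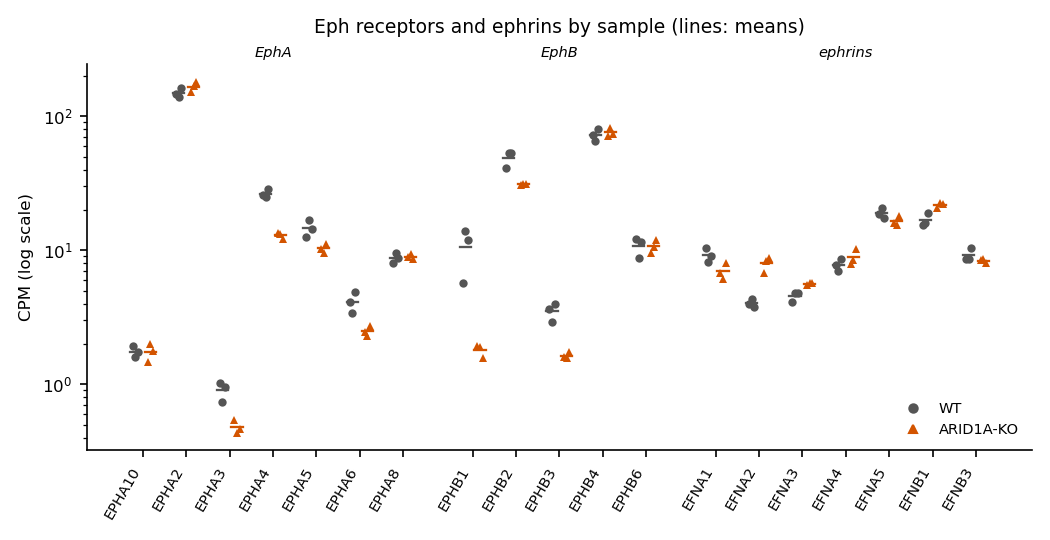
CPM (log scale) of each Eph receptor and ephrin tested in the 3 WT samples (grey circles) and the 3 ARID1A-KO samples (orange triangles), with lines at the means. The ARID1A-KO samples lie below all WT samples for 7 Eph receptors, furthest for EPHB1, and above them for EFNA2.

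Of class 3 semaphorins, the secreted ligands of the family, 5 of 7 were lower in ARID1A-KO cells (71.4%, against 18.4% of all genes). SEMA3G was higher. SEMA3C (ENSG00000075223.9, chromosome 7 from 80371854 to 80551675), which signals through neuropilins and acts in heart and vessel development, had 55.8, 73.6 and 78.4 CPM in WT and 23.8, 22.7 and 36.3 CPM in ARID1A-KO cells. The highest ARID1A-KO sample, replicate 5, stayed below the lowest WT sample. The log2 fold change was -1.32 (SE 0.19, adjusted p = 0.000574), and it was -1.57 without ARID1A-KO replicate 5. SEMA3E (ENSG00000170381.8, chromosome 7 from 82993222 to 83278326), which binds plexin-D1 without a neuropilin, fell from 80.4, 84.1 and 104 CPM to 49.0, 45.3 and 50.8 CPM. The log2 fold change was -0.89 (SE 0.10, adjusted p = 0.000157). SEMA3A, the prototype repellent of the family, was lower by -0.57 on the log2 scale (27.8, 37.4 and 27.3 against 21.2, 18.6 and 22.3 CPM, adjusted p = 0.00719). SEMA3A, SEMA3C, SEMA3D and SEMA3E lie in a row on chromosome 7 between 80371854 and 84816171. SEMA3D, the last of them, was not called, with 1.93, 2.01 and 1.60 CPM in WT and 1.67, 1.60 and 2.61 CPM in ARID1A-KO cells. Over all other genes tested within 5 Mb, the median log2 fold change was -0.04 around SEMA3C, -0.0070 around SEMA3E and 0.10 around SEMA3D, so that the genes around did not share the fall on balance.

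The 150 bases upstream of the RefSeq starts of SEMA3C (chr7:80922390-80922539), SEMA3E (chr7:83649140-83649289) and SEMA3D (chr7:85187057-85187206), all on the minus strand of GRCh38.p14, are given in the direction of the gene to set the called neighbours beside the uncalled one. Capitals mark an E-box (CACGTG), found in SEMA3E, and no searched motif was in the other windows. GC made up 36.4% of the 250 bases upstream of SEMA3C, 46.4% of SEMA3E and 57.6% of SEMA3D.
SEMA3C: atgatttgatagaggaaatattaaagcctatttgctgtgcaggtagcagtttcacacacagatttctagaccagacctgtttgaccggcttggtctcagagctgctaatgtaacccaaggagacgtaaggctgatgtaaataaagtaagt
SEMA3E: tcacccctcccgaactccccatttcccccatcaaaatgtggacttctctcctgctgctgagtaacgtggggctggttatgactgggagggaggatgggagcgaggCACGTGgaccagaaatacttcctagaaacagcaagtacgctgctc
SEMA3D: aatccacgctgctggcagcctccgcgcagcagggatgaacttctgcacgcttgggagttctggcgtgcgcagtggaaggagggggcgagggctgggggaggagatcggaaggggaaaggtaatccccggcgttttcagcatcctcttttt

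SEMA3B, SEMA3F and SEMA3G lie on the short arm of chromosome 3 and went in different directions. SEMA3B, a secreted semaphorin known as a candidate tumour suppressor in lung cancer, fell from 5.23, 3.17 and 4.07 CPM to 1.03, 1.40 and 2.72 CPM. On the log2 scale it changed by -1.26 (SE 0.33, adjusted p = 0.0154), with the call lost without WT replicate 3 (adjusted p = 0.0610) or ARID1A-KO replicate 4 (adjusted p = 0.0556). The highest ARID1A-KO sample was again replicate 5, and without it the log2 fold change was -1.78. SEMA3F, a ligand of NRP2, was lower by -0.46 on the log2 scale (adjusted p = 0.0382), but its samples overlapped (12.4, 8.65 and 12.4 against 7.48, 7.84 and 8.94 CPM). That call was lost without WT replicate 3 or 5 or ARID1A-KO replicate 3 or 4, with adjusted p between 0.112 and 0.127. SEMA3G, a further NRP2 ligand, rose from 3.81, 2.37 and 3.52 CPM to 4.86, 4.82 and 5.94 CPM (log2 fold change 0.69, SE 0.19, adjusted p = 0.0179). Summed over the class, the level per length was 31.5 ± 3.38 RPKM in WT and 17.0 ± 2.21 RPKM in ARID1A-KO cells. SEMA3C and SEMA3E together held most of that sum, with 34.9% ± 3.10 and 42.0% ± 2.05 in WT.

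Class 4 semaphorins, which are membrane-bound ligands of B-type plexins, were higher for 3 of 5 genes tested and lower for none. SEMA4C, a ligand of plexin-B2, rose from 53.2, 54.9 and 57.9 CPM to 68.7, 76.9 and 73.1 CPM (log2 fold change 0.40, SE 0.07, adjusted p = 0.00152). SEMA4B rose from 19.6, 16.8 and 19.5 CPM to 22.8, 24.6 and 30.1 CPM (log2 fold change 0.47, SE 0.11, adjusted p = 0.0103). SEMA4G had 6.58, 7.03 and 6.87 CPM in WT and 8.37, 8.57 and 8.37 CPM in ARID1A-KO cells (log2 fold change 0.31, SE 0.09, adjusted p = 0.0303). The groups were apart for all 3 genes. The call of SEMA4G did not hold without any sample other than WT replicate 4 (adjusted p between 0.0505 and 0.113), with no filter on low counts (adjusted p = 0.0999), or with counts taken without regard to strand (log2 fold change 0.13, adjusted p = 0.328). SEMA4D, the ligand of plexin-B1 that osteoclasts use to restrain bone formation, and SEMA4F were not called (log2 fold changes of -0.21 and 0.25). SEMA4F was called without WT replicate 4 (adjusted p = 0.0105), with the replicate number in the model (adjusted p = 0.0330) and with no filter (adjusted p = 0.0452).

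Of the remaining semaphorins, SEMA6A changed and SEMA5A, SEMA6B, SEMA6C, SEMA6D and SEMA7A were not called. With no filter on low counts, SEMA7A was called lower (log2 fold change -0.26, adjusted p = 0.00725). SEMA6A, a transmembrane ligand of plexin-A2 and plexin-A4, fell from 17.3, 12.7 and 13.6 CPM to 6.24, 6.91 and 6.22 CPM. The groups were well apart, and the change on the log2 scale was -1.17 (SE 0.13, adjusted p = 0.000147). Summed over all semaphorins, the level was 85.1 ± 4.30 RPKM in WT and 73.1 ± 5.04 RPKM in ARID1A-KO cells. SEMA4C made up 10.6% ± 0.15 of this sum in WT and 16.2% ± 0.96 in ARID1A-KO.

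**Figure D3:**
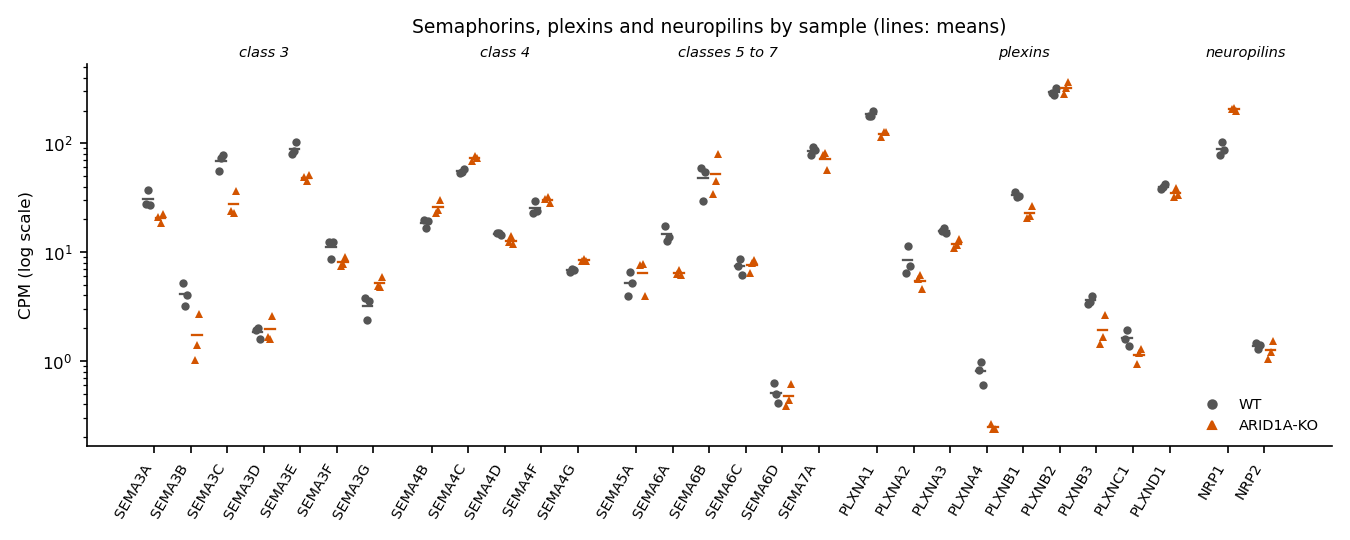
CPM (log scale) of the semaphorins by class, the plexins and the neuropilins tested, in the 3 WT samples (grey circles) and the 3 ARID1A-KO samples (orange triangles), with lines at the means. SEMA3C, SEMA3E, SEMA6A and PLXNA1 lie lower in all ARID1A-KO samples, and NRP1 lies higher, at 197 to 211 against 78.8 to 102 CPM.

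Of the semaphorin receptors, NRP1 was higher and 6 plexins were lower. NRP1 (ENSG00000099250.13, chromosome 10 from 33466420 to 33625190), the neuropilin that serves as co-receptor for class 3 semaphorins and for VEGF-A, rose from 78.8, 102 and 86.0 CPM to 207, 211 and 197 CPM. Every ARID1A-KO sample lay far above every WT sample. The log2 fold change was 1.20 (SE 0.09, adjusted p = 2.08e-05), and it stayed between 1.12 and 1.31 under all 12 alternatives. NRP2 was at 1.45, 1.30 and 1.41 CPM in WT and 1.04, 1.20 and 1.53 CPM in ARID1A-KO cells and was not called (log2 fold change -0.13, adjusted p = 0.625). NRP1 held 98.4% ± 0.29 of the summed neuropilin level in WT, and that sum went from 7.85 ± 1.03 to 17.9 ± 0.58 RPKM. The more abundant neuropilin and 5 of the 7 class 3 ligands thus changed in opposite directions. Not all of these ligands act through NRP1, as SEMA3E binds plexin-D1 without a neuropilin and SEMA3F is a ligand of NRP2. The calls of SEMA3B and SEMA3F were also lost without some of the samples.

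Plexins were lower for 6 of 9 genes (66.7%, against 18.4% of all genes) and higher for none. All 4 A-type plexins, the signalling partners of neuropilins, were lower. PLXNA1, the most abundant of them, fell from 180, 176 and 198 CPM to 114, 126 and 127 CPM (log2 fold change -0.59, SE 0.07, adjusted p = 0.0002). PLXNA3 was lower by -0.40 (15.5, 16.7 and 14.9 against 10.9, 11.6 and 13.3 CPM, adjusted p = 0.0121), with the call lost without ARID1A-KO replicate 3 (adjusted p = 0.0552) or 4 (adjusted p = 0.0534). PLXNA2 was lower by -0.63 (6.49, 11.4 and 7.53 against 5.64, 6.15 and 4.62 CPM, adjusted p = 0.0378). The call of PLXNA2 was lost without any sample other than WT replicate 3, with adjusted p between 0.0542 and 0.0979, and its log2 fold change was -0.36 without WT replicate 4. PLXNA4 had under 1 CPM in every sample and was lower by -1.71 (0.824, 0.986 and 0.601 against 0.264, 0.237 and 0.239 CPM, adjusted p = 0.000883). With counts taken without regard to strand, its log2 fold change was -2.74. At this locus the opposite strand held more counts than the gene's own strand, as given below. The unstranded value therefore does not describe PLXNA4 alone. Only PLXNA1 of this group was abundant, and it made up 24.4% ± 0.14 of the plexin level in WT and 17.5% ± 1.12 in ARID1A-KO cells.

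Among B-type plexins, 2 of 3 were lower (66.7%, against 18.4% of all genes), which are too few genes to be judged against that share. PLXNB1, the receptor of SEMA4D, fell from 35.8, 32.1 and 32.5 CPM to 20.5, 21.5 and 26.3 CPM (log2 fold change -0.55, SE 0.10, adjusted p = 0.00255). PLXNB3, a receptor of SEMA5A that overlaps SRPK3 on the same strand, fell from 3.36, 3.49 and 3.97 CPM to 1.44, 1.67 and 2.67 CPM (log2 fold change -0.89, SE 0.22, adjusted p = 0.0124). Both groups were apart, with ARID1A-KO replicate 5 nearest to WT for each. PLXNB2, at 41.2 RPKM in WT against 3.42 RPKM of PLXNB1, was not called. PLXNC1, the receptor of SEMA7A, and PLXND1, the receptor of SEMA3E, were not called either (log2 fold changes of -0.52 and -0.21, adjusted p of 0.0640 and 0.0761). PLXNC1 was called without ARID1A-KO replicate 5 (adjusted p = 0.0478) and PLXND1 without ARID1A-KO replicate 4 (adjusted p = 0.0342). The summed plexin level was 69.0 ± 4.01 RPKM in WT and 64.1 ± 7.18 RPKM in ARID1A-KO cells.

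In the SLIT and ROBO system, 2 of 4 receptors were higher, and of 3 ligands 1 was higher and 1 was lower. Of all genes 17.8% were higher and 18.4% were lower, and these families are too small to be judged against such shares. ROBO3, the receptor that lets commissural axons cross the midline, rose from 15.8, 17.8 and 15.6 CPM to 23.0, 25.5 and 23.8 CPM (log2 fold change 0.56, SE 0.08, adjusted p = 0.000827). ROBO1, the most abundant ROBO, rose from 88.5, 88.3 and 94.3 CPM to 106, 102 and 104 CPM (log2 fold change 0.21, SE 0.06, adjusted p = 0.0198). The groups were apart for both, but the call of ROBO1 was lost without WT replicate 3 or 4 or ARID1A-KO replicate 3 or 4 (adjusted p between 0.0583 and 0.0782). ROBO2, at under 0.4 CPM, and ROBO4, the endothelial ROBO, were not called (adjusted p of 0.519 and 0.576). SLIT2, the main SLIT ligand here, was lower by -0.42 on the log2 scale (15.7, 12.1 and 14.2 against 8.96, 10.3 and 12.2 CPM, adjusted p = 0.0386). Its samples overlapped, and the call was lost without WT replicate 3 or 5 or ARID1A-KO replicate 3 or 4 (adjusted p between 0.0951 and 0.134). SLIT1 was barely expressed, with 0.105, 0.113 and 0.189 CPM in WT and 0.264, 0.419 and 0.409 CPM in ARID1A-KO cells. Its call (log2 fold change 1.43, SE 0.35, adjusted p = 0.0104) rests on 26 WT and 77 ARID1A-KO counts in all, and the locus shares a strand with the readthrough gene ARHGAP19-SLIT1. SLIT3 was not called (log2 fold change -0.13, adjusted p = 0.639). The summed ROBO level was 12.1 ± 0.64 RPKM in WT and 14.7 ± 0.13 RPKM in ARID1A-KO cells, and that of the SLITs was 1.94 ± 0.16 and 1.56 ± 0.22 RPKM.

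Netrins and their receptors were called for NTN4, DCC and UNC5B. Of 2 netrins tested 1 was lower, and of 5 receptors 1 was higher and 1 was lower. Of all genes 17.8% were higher and 18.4% were lower, and these families too are small for such a comparison. NTN4 (ENSG00000074527.7, chromosome 12 from 96051583 to 96184930), a netrin that binds laminins and is built into basement membranes, had 30.5, 17.4 and 24.5 CPM in WT and 7.56, 7.35 and 14.7 CPM in ARID1A-KO cells. The samples varied widely within each genotype and did not overlap between them. The log2 fold change was -1.28 (SE 0.28, adjusted p = 0.0065), and it was -1.69 without ARID1A-KO replicate 5. NTN1, the classical netrin, was at 35.7, 43.5 and 44.2 CPM in WT and 43.7, 49.4 and 39.8 CPM in ARID1A-KO cells and was not called (log2 fold change 0.11, adjusted p = 0.466). The share of NTN4 in the summed netrin level was 46.9% ± 9.38 in WT and 25.1% ± 9.24 in ARID1A-KO cells. DCC (ENSG00000187323.7, chromosome 18 from 49866542 to 51057784), the attractive netrin receptor, fell from 1.29, 1.49 and 1.75 CPM to 0.720, 0.509 and 0.523 CPM (log2 fold change -1.37, SE 0.21, adjusted p = 0.000999). UNC5B (ENSG00000107731.8, chromosome 10 from 72972327 to 73062621), a repulsive netrin receptor, rose from 8.26, 9.66 and 6.24 CPM to 13.4, 15.9 and 12.5 CPM (log2 fold change 0.79, SE 0.16, adjusted p = 0.00439). DCC and UNC5B were thus called in opposite directions, with no overlap between the genotypes for either. DCC was however low, with means of 0.175 RPKM in WT and 0.0675 RPKM in ARID1A-KO cells, both below 1 RPKM. Of the summed level of DCC and the UNC5 receptors, UNC5B held 71.6% ± 4.44 in WT and 86.5% ± 1.08 in ARID1A-KO cells. UNC5A, UNC5C and UNC5D were not called (log2 fold changes of 0.54, -0.38 and -0.39).

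**Figure D4:**
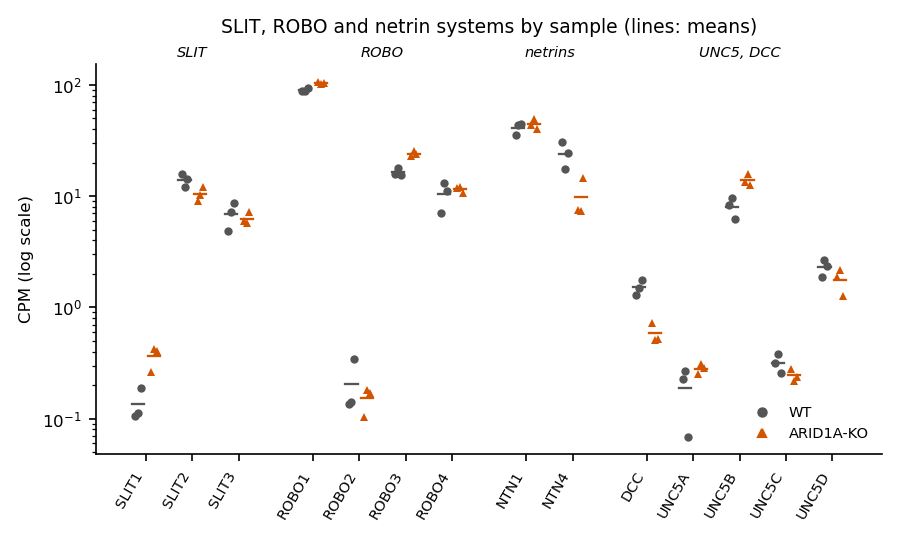
CPM (log scale) of the SLIT ligands, ROBO receptors, netrins, and UNC5 and DCC receptors tested, in the 3 WT samples (grey circles) and the 3 ARID1A-KO samples (orange triangles), with lines at the means. DCC and NTN4 lie lower and UNC5B and ROBO3 higher in all 3 ARID1A-KO samples, while SLIT1, ROBO2, UNC5A and UNC5C lie under 0.5 CPM.

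Several guidance genes lay where the genes around them were shifted as well. Chromosome 3 carries 13 guidance genes, of which 12 were tested, 8 were lower and 2 were higher. Over all 1088 genes tested on this chromosome, 34.7% were lower and 9.28% were higher, and the median log2 fold change was -0.17. Neighbours were the other genes tested within 5 Mb, with all guidance genes left out. Their median log2 fold change was -0.49 around EPHB1 (57 genes), -0.41 around PLXNA1 (87 genes) and -0.43 around PLXND1 (82 genes). It was -0.37 around EPHA6 (42 genes) and -0.23 around EPHB3 (77 genes). The difference of a gene's log2 fold change from its neighbours' median was -2.06 for EPHB1, -0.19 for PLXNA1 and 0.22 for PLXND1. All 4 guidance genes on chromosome 10, NRP1, UNC5B, SLIT1 and SEMA4G, were higher, where 35.7% of the 784 genes tested were higher and 13.0% lower. The neighbours' median was 0.40 around UNC5B (101 genes), 0.40 around SEMA4G (119 genes) and 0.25 around SLIT1 (109 genes), but 0.0046 around NRP1 (40 genes). NRP1 thus moved without its neighbours, and SEMA4G lay no higher than its own. For 2 of the 11 higher and 3 of the 23 lower genes the neighbours' median was further than 0.3 from 0. The part of the neighbourhood in these changes was not tested.

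**Figure D5:**
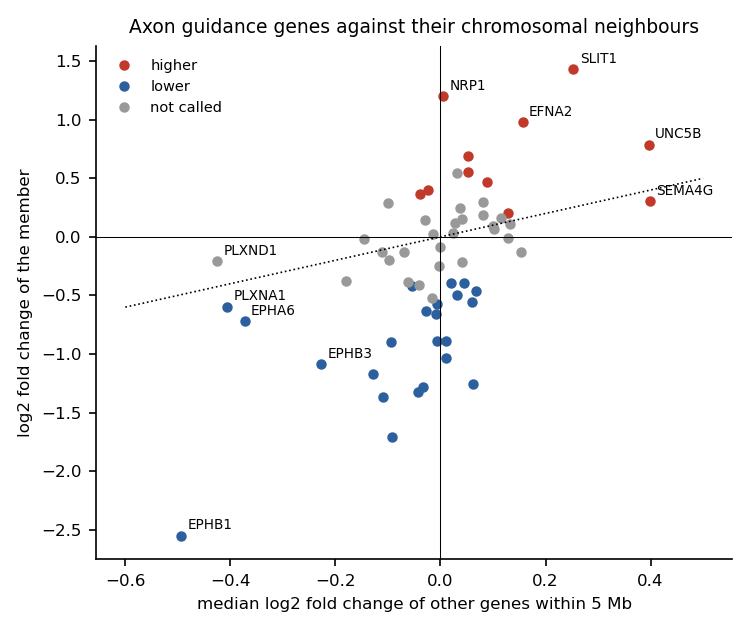
Log2 fold change of each guidance gene tested (y) against the median log2 fold change of its neighbours (x). Neighbours are the other genes tested within 5 Mb of its start, with guidance genes left out. Higher genes are in red, lower genes in blue and the others in grey, and the dotted line marks equal values. EPHB1, PLXNA1, PLXND1 and EPHA6 lie at the left with neighbours between -0.49 and -0.37, UNC5B and SEMA4G at the right at 0.40, and NRP1 above 0.

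Reads on the strand opposite to the gene were counted in a separate column. Of 8886 genes tested in that column, 10.1% were higher and 10.2% were lower in ARID1A-KO cells. For PLXNA4 the opposite strand held more counts than the gene's own strand, 1492 against 160 over the WT samples and 203 against 52 over the ARID1A-KO samples, and these were lower with a log2 fold change of -2.94 (SE 0.27). PLXNA2 had 470 opposite-strand counts in WT and 46 in ARID1A-KO cells and was lower there by -3.45 (SE 0.36). Counts at both loci were thus lower on either strand, but reads on the opposite strand do not measure the RNA of the plexin. On its own strand, the call of PLXNA2 was lost without any sample other than WT replicate 3, and PLXNA4 had few counts. Counts on the strand opposite to NRP1, where RP11-342D11.2 overlaps it, were higher by 1.45 (SE 0.24, adjusted p = 0.000481), although these were only 75 and 218 counts. NTN1 was lower there by -1.22 (adjusted p = 0.0218) and was not called on its own strand. SEMA4G was lower by -0.46 (adjusted p = 0.00869) on the opposite strand, which MRPL43 occupies, and higher on its own. EPHA1 had 4964 and 5583 opposite-strand counts, at a locus shared with EPHA1-AS1 and ZYX, against 14 and 4 on its own strand.

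Promoters were available in the RefSeq table for 59 of the 69 names, and 5 short motifs were searched on both strands of the 250 bases upstream of the start. The GC box GGGCGG was found in 8 of 9 higher, 13 of 21 lower and 18 of 23 uncalled genes, and in 42.6% of all 35116 promoters. CCAAT was found in 3, 5 and 8 of them, against 32.0% of all promoters, and the E-box CACGTG in 0, 1 and 3, against 6.34%. Among the genes tested, the AP-1 motif TGANTCA was found in PLXNC1 alone, against 6.57% of all promoters, and TATAAA in none, against 10.7%. EFNB2, which could not be tested, had a TATAAA match. The median GC content of the guidance genes' upstream windows was 65.6%, and that of all promoters was 58.0%. These matches describe the windows only.

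Other genes of the pathway were taken from lists made from general knowledge. Of 22 further cues, co-receptors and adhesion receptors tested, 5 were higher (22.7%, against 17.8% of all genes) and 7 were lower (31.8%, against 18.4%), with a median log2 fold change of -0.09. DSCAM, a netrin co-receptor, had 0 to 4 counts per WT sample and 58 to 109 counts per ARID1A-KO sample (adjusted p = 3.06e-05), and no fold is given at so few WT counts. DRAXIN, a netrin antagonist, rose by 1.84 on the log2 scale (SE 0.15), and LINGO1, a partner of the Nogo receptor, by 0.90 (SE 0.13). FLRT3, a membrane protein that binds ROBO1 and UNC5B, fell by 2.40 on the log2 scale (SE 0.18), from 8.86 ± 1.94 to 1.68 ± 0.11 CPM. PLXDC2 fell by 2.01 (SE 0.16) and the netrin relative NTNG1 fell by 1.58 (SE 0.13). Among 51 signal transducers tested, 6 were higher (11.8%, against 17.8% of all genes) and 19 were lower (37.3%, against 18.4%), with a median of -0.16. DPYSL4, of the collapsin response mediators that act below semaphorin receptors, rose by 1.42 (SE 0.08), NGEF, which acts below Eph receptors, by 1.12 (SE 0.13) and the plexin target RRAS by 0.75 (SE 0.10). FARP1, an exchange factor of the semaphorin pathway, fell by 1.41 (SE 0.10) where its neighbours' median was -0.93, and GSK3B fell by 0.66 (SE 0.07) where it was -0.43. ABLIM3, an actin-binding protein, fell by 0.58 (SE 0.09).

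Markers of several cell types moved with the genotype too, where 17.8% of all genes tested were higher and 18.4% were lower. Of 10 osteoblast markers 7 were tested and 5 were lower (ALPL, PHEX, SPP1, SPARC and COL1A1), with a summed level of 220 to 228 RPKM in WT and 125 to 130 RPKM in ARID1A-KO samples. Of the neuronal markers 9 were tested, 5 were higher (RBFOX3, SYP, SYN1, TUBB3 and MAP2) and SNAP25 was lower. NEFL, STMN2 and ELAVL4 were not called, and NEFM was at or near 0. The sums of 16.6 to 22.7 and 29.2 to 31.5 RPKM came mostly from NEFL, with means of 12.9 RPKM in WT and 16.5 RPKM in ARID1A-KO cells. RBFOX3, SYN1, TUBB3 and MAP2 had means below 1 RPKM in WT. Of the endothelial markers 7 were tested and 2 were lower, with sums of 12.9 to 17.0 and 14.0 to 16.3 RPKM that came mostly from EGFL7, and CDH5, KDR and EMCN were at or near 0. Of the epithelial markers 6 were tested, 1 was higher and 3 were lower, with sums of 197 to 227 and 140 to 146 RPKM that came mostly from KRT8 and KRT18. All 10 leukocyte markers were below 1 RPKM in every sample, with sums of 1.22 to 1.44 and 1.22 to 1.45 RPKM. Of these 5 were tested, ITGAM was higher and CSF1R and PTPRC were lower (log2 fold changes of 2.95, -3.34 and -2.10). The part of these shifts in the changes of the guidance genes was not tested.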

How the data were processed

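RNA-seq of AID-DivA cells without treatment was used, with 3 samples per genotype. According to the methods, the Roddy workflow aligned paired reads with STAR to the GRCh37 build, and featureCounts assigned them to genes (versions not given in the sources used here). A kit for total RNA is named in the protocol, but the molecule on the labels is polyA RNA. The authors deposited whole-number counts per gene without normalization, in unstranded, forward and reverse columns, and the reverse column was used because forward counts came to 5.83% to 6.15% of it. Deposited normalized values were not used.

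Counts were filtered with filterByExpr, scaled by TMM and tested with the quasi-likelihood test of edgeR 4.0.16 (R 4.3.3) with Benjamini-Hochberg adjustment over all genes tested, without covariates, and genes were called at an adjusted p under 0.05. SE is the absolute log2 fold change divided by the square root of F. CPM use TMM library sizes, and RPKM divide them by exonic length. Depth is high, so counting error matters only at the lowest levels. The common BCV (biological coefficient of variation) was 0.111. No samples agreed within sampling noise. The fits were also run on counts simulated with known changes and the same dispersion for every gene. That setting is simpler than these samples, so it does not measure the error of the calls here.

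The genes, lists and tests were chosen with earlier results of these data known. Each sample is given for the called genes with the largest change, at most 12 per direction, among those without overlap and with a mean log2 CPM over 0, for the 8 genes with the highest RPKM, and, chosen after their values were seen, for other called genes. Of each list of other pathway genes, the 3 largest called changes per direction are named. Alternatives were unstranded counts, RLE scaling, a minimum of 10 counts in every sample or no filter, DESeq2 1.42.0, the replicate number as a block, each sample left out, and an adjusted p under 0.01. Tables and figures were made with Python 3.11.15.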

Additional observations from a re-analysis of the deposited data

How the results depend on the processing

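Of the called guidance genes, 8 of 11 higher and 17 of 23 lower ones kept their call at an adjusted p under 0.05 in each of the 12 other fits that tested them (SLIT1 was not tested at a minimum of 10 counts), and none changed direction. The calls lost at that threshold are named with their genes. At an adjusted p under 0.01, 4414 of all genes were called in place of 7099, with 5 guidance genes higher in place of 11 and 16 lower in place of 23. With a sample left out in turn, 8 to 11 genes were higher and 18 to 23 lower, 10 to 14 genes of the cue list and 18 to 24 transducers were called, and 5285 to 7050 genes were called in all. With DESeq2, 11 were higher and 23 lower, and with no filter 12 and 25. The replicate number as a block gave 12 higher and 23 lower guidance genes and 7477 called genes in all. The deviations of same-numbered samples from their group means correlated by -0.18, 0.27 and 0.18 for numbers 3, 4 and 5, so that the numbers were not taken as pairs, and not every sample correlated best with its own number. With 3 samples per genotype, a missed call does not show that a gene did not differ.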
